A study of Mus musculus with 13 samples.

Results

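The blood-brain barrier is made by brain endothelial cells that seal their contacts with tight junctions and move selected solutes with membrane transporters. Wnt signals from glia and neurons, acting through β-catenin and transcription factors such as Lef1 in the endothelium, are known to induce and keep this state. RNA-Seq counts of 10 genes of the barrier were examined here, out of 49315 genes counted per library: the junction genes Cldn5, Ocln and Tjp1, the lipid and glucose transporters Mfsd2a and Slc2a1, the efflux pumps Abcb1a and Abcg2, the organic anion transporters Slco1a4 and Slco1c1, and the Wnt effector Lef1. The genes were listed by name for their roles, with earlier results of these data already known, so their counts of calls are not those of a blind choice. All 10 passed the filter on low counts.

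The study asked how RIPK3, a kinase of the necroptosis pathway, acts in astrocytes when dopaminergic neurons die. Whole midbrain was taken from 13 male mice, each library from a separate animal, 3 days after the last of 5 daily injections of saline or of MPTP at 20 mg/kg, a toxin of dopaminergic neurons. Every mouse was Ripk3fl/fl, aged 8 to 12 weeks at the time of experiments, and perfused with saline buffer before the tissue was taken. Cre+ mice carried the tamoxifen-inducible Aldh1l1-Cre/ERT2, which is driven by an astrocyte promoter. Cre- littermates did not, so that both genotypes shared the floxed gene. Tamoxifen at 60 mg/kg for 5 days beforehand is taken here as given to all 13 mice. The study's methods state it for the animals with the transgene and do not name the Cre- littermates. Cre- Saline, Cre+ Saline and Cre- MPTP had 3 mice each, and Cre+ MPTP had 4.

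The libraries held 11489150 to 29397278 gene counts each. The targeted gene Ripk3 had 4 to 11 counts in Cre- Saline, 6 to 10 in Cre+ Saline, 6 to 40 in Cre- MPTP and 4 to 19 in Cre+ MPTP, too few to check the genotype of single mice. All 8 markers of dopaminergic neurons and all 21 endothelial markers were detected in every library. Cre- MPTP replicate 1 stood apart. Its total was the smallest, only 21101 genes were detected in it where the other 12 libraries had 25432 to 27186, and its counts were tilted by base composition. On the log2 scale, its genes in the lowest 10% of GC content had a median of -1.09 around their own means, and those in the highest 10% 1.47, while the other libraries stayed within -0.26 and 0.21. It was also the most extreme of the 13 libraries for all 10 barrier genes, the lowest for 7 and the highest for 3. Tests of the barrier genes and counts over gene lists are therefore given with and without it. Cre+ MPTP replicate 4 held muscle transcripts (a summed 2195 CPM over 7 muscle markers, against at most 46.8 elsewhere). It also held the most erythrocyte RNA (87.4 CPM over 5 markers, against at most 15.1 elsewhere). The 6 pituitary markers summed to 9.53 to 41.9 CPM in Cre- Saline and 24.7 to 614 in Cre+ Saline. They summed to 10.2 to 84.1 CPM in Cre- MPTP and 11.4 to 31.1 in Cre+ MPTP.

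The levels per transcript length spanned a wide range in saline. In TPM, the share of a transcript among all transcripts once length is divided out, Cldn5 and Slc2a1 were the most abundant of the barrier genes in Cre- Saline, at 167 ± 24.5 and 142 ± 21.3 (SD, n = 3), and their ranges overlapped. Tjp1, Mfsd2a, Slco1c1, Slco1a4 and Abcb1a followed at means of 42.8 down to 27.4 TPM, with the ranges of neighbours overlapping. Ocln (9.13 TPM), Abcg2 (6.96 TPM) and Lef1 (4.29 TPM) were the least abundant, and Lef1 lay below all others without overlap. Among the 6 saline libraries of both genotypes, the coefficient of variation of CPM (counts scaled to library size) was between 6.75% for Abcg2 and 24.2% for Cldn5. In Cre- MPTP the mean of Slco1c1 fell from place 5 to 7, at 6.75 TPM, and that of Mfsd2a rose from place 4 to 3, at 83.8 TPM.

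**Figure D1:**
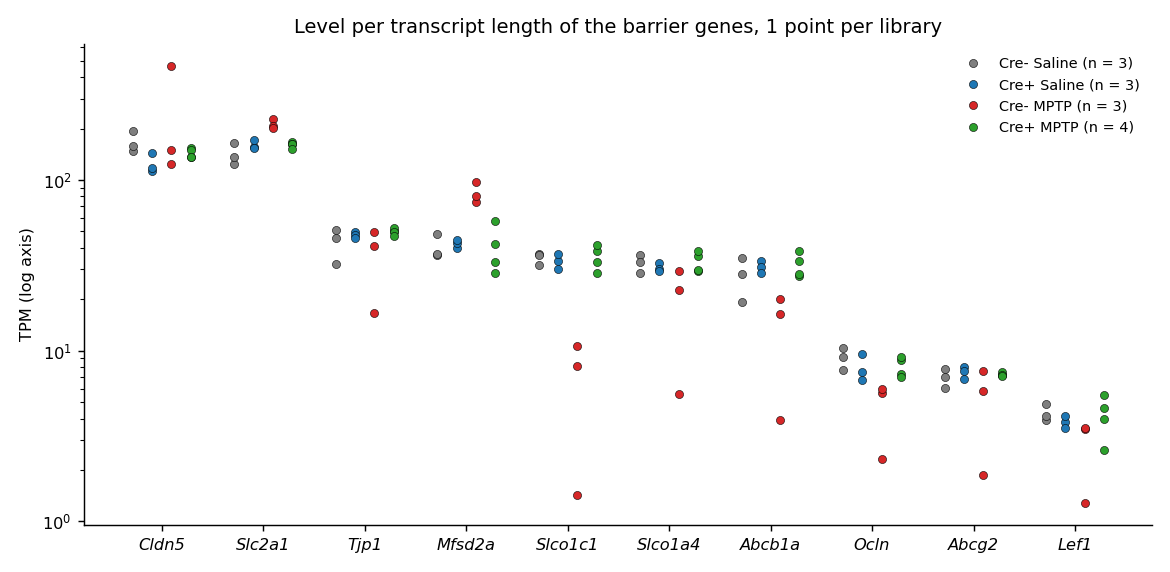
Level of each barrier gene per transcript length, in TPM on a log axis, with 1 point per library and 1 color per group. Cldn5 and Slc2a1 lay highest and Lef1 lowest, and the Cre- MPTP libraries were below the other groups for Slco1c1 and above them for Mfsd2a.

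The first question was how the barrier genes responded to MPTP in mice with astrocytic Ripk3 intact (Cre- MPTP against Cre- Saline). Slco1c1 fell 5.15-fold, Ocln fell 1.87-fold and Mfsd2a rose 2.31-fold, so that 3 of the 10 were under an adjusted p of 0.05, where 3.18% of the 19360 genes tested did (quasi-likelihood test of edgeR, p-values adjusted by Benjamini-Hochberg over all genes). At an unadjusted p under 0.05, 7 of the 10 passed and 15% of all genes did. The CPM of the groups did not overlap for 7 of the 10 genes, higher with MPTP for Mfsd2a and Slc2a1 and lower for Slco1c1, Slco1a4, Abcb1a, Ocln and Lef1, where 15.1% of all genes did not overlap. The median size of the log2 fold change, whatever its sign, was 0.84 over the barrier genes and 0.30 over all genes. In whole tissue, fewer endothelial cells and less RNA per cell cannot be told apart.

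Among the solute carriers, Slco1c1 encodes OATP1C1, which carries thyroxine across brain endothelium and into astrocytes. The gene lies on chromosome 6 of GRCm38 (141524368 to 141570177, plus strand). Its promoter is printed because it was the member with the largest fold change. It is the 250 bases before the RefSeq start (GRCm38.p6, chr6:141524104-141524353, plus strand), and capitals mark a match to CTTTGA or CTTTGT, the core read by TCF/LEF factors.
Slco1c1: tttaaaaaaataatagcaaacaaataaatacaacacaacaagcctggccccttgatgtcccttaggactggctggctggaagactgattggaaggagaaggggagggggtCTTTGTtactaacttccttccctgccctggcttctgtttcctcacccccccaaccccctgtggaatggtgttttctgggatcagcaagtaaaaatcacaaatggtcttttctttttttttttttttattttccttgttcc
In Cre- Saline, Slco1c1 stood at 52.2, 56.6 and 53.7 CPM in the 3 libraries, and in Cre- MPTP at 3.36, 15.4 and 12.05 CPM. All 3 Cre- MPTP libraries lay far below every saline library, and the lowest value came from replicate 1. The log2 fold change was -2.37 (SE 0.372, edgeR adjusted p = 0.00374). Slco1c1 passed in each of the 6 fits that left out 1 library of these groups (log2 fold change -2.74 to -1.98), and without Cre- MPTP replicate 1 it was -1.98 (SE 0.149, adjusted p = 1.36e-05). It was -2.37 with an adjusted p of 0.138 when edgeR was fitted to these 6 libraries alone, a fit in which none of the 10 genes passed, while 105 genes rose and 5 fell overall.

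Slco1a4, the gene of the organic anion transporter OATP1A4, lies on the same chromosome on the minus strand (141805440 to 141856199). It stood at 57.6, 68.4 and 60.8 CPM in Cre- Saline and at 16.3, 40.8 and 53.3 CPM in Cre- MPTP. The groups did not overlap, but the Cre- MPTP values were spread over a range larger than the gap between the groups. Its log2 fold change was -0.75 (SE 0.302, edgeR adjusted p = 0.278), and -0.40 without Cre- MPTP replicate 1 (adjusted p = 0.0712).

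Mfsd2a encodes the endothelial transporter of lysophosphatidylcholine-bound docosahexaenoic acid, which is also known to restrain transcytosis. The gene lies on chromosome 4 (122946850 to 122961188, minus strand). Its promoter (RefSeq, GRCm38.p6, chr4:122961189-122961438, minus strand) is shown because it was the member that rose, with capitals as above.
Mfsd2a: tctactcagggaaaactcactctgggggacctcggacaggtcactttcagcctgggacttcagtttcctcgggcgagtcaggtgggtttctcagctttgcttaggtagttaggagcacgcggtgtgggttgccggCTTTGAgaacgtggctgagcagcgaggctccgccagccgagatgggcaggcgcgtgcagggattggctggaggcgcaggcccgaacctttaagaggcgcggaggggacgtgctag
Mfsd2a stood at 25.8, 24.3 and 31.0 CPM in Cre- Saline and at 75.5, 61.0 and 51.5 CPM in Cre- MPTP. Every Cre- MPTP library was above every other library of the study. The log2 fold change was 1.21 (SE 0.238, edgeR adjusted p = 0.0133), and 1.06 without Cre- MPTP replicate 1 (adjusted p = 0.00756). It no longer passed without Cre- Saline replicate 1 or 2, with adjusted p-values up to 0.0820.

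Slc2a1, on the plus strand of the same chromosome (119108711 to 119137983), encodes the glucose transporter GLUT1 of endothelium and astrocytes. Its levels were 138, 141 and 166 CPM in Cre- Saline and 361, 202 and 201 CPM in Cre- MPTP. The groups did not overlap, and the gene was highest in replicate 1. Its log2 fold change was 0.78 (SE 0.199), just short of the threshold (edgeR adjusted p = 0.0591). It was 0.44 (SE 0.0853, adjusted p = 0.00504) without Cre- MPTP replicate 1, where the other 2 libraries agreed closely. Its exons overlap those of Gm12868 on the other strand, as those of Abcb1a and Lef1 overlap Gm42686 and Gm43352, and whether the counting used strand is not given in the sources used here.

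The efflux pumps return drugs and toxins from the endothelium to the blood. Abcb1a, the P-glycoprotein gene (chromosome 5, 8660077 to 8748575, plus strand), stood at 33.7, 45.3 and 54.2 CPM in Cre- Saline and at 9.75, 25.3 and 31.3 CPM in Cre- MPTP. The groups did not overlap, though the highest Cre- MPTP value came close to the lowest saline value. The log2 fold change of Abcb1a was -0.99 (SE 0.320, edgeR adjusted p = 0.157), and -0.64 (SE 0.176, adjusted p = 0.0359) without Cre- MPTP replicate 1. Only uniquely mapped reads were counted, so reads that fit both Abcb1a and its paralog Abcb1b would be missing from both. Abcb1b stood at 3.68 to 7.13 CPM in Cre- MPTP and 4.38 to 4.57 CPM in Cre- Saline. It did not pass (log2 fold change 0.39, edgeR adjusted p = 0.445). Abcg2, the gene of the pump BCRP (chromosome 6, 58584523 to 58695676, plus strand), stood at 15.7, 16.8 and 18.1 CPM in Cre- Saline and at 6.94, 13.2 and 17.5 CPM in Cre- MPTP. These groups overlapped, and its log2 fold change moved from -0.41 (adjusted p = 0.431) to -0.13 without Cre- MPTP replicate 1.

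Of the junction genes, Ocln encodes occludin, a membrane protein of the tight junction. Its promoter on chromosome 13 (RefSeq, GRCm38.p6, chr13:100552719-100552968, minus strand) is shown as Ocln was the other gene that passed, and it holds no match to the TCF/LEF core.
Ocln: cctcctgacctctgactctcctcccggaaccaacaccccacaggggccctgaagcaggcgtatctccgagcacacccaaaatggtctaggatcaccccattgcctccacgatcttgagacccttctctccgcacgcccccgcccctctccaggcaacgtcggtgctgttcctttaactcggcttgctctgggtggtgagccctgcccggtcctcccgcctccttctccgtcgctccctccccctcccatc
Ocln (100496507 to 100552718, minus strand) stood at 12.3, 9.65 and 12.5 CPM in Cre- Saline and at 4.44, 6.65 and 7.16 CPM in Cre- MPTP, where every library was below every other library of the study. These values rest on 247 to 343 counts in Cre- Saline and on 41, 168 and 217 counts in Cre- MPTP. The log2 fold change was -0.90 (SE 0.212, edgeR adjusted p = 0.0372), and -0.73 (adjusted p = 0.0204) without Cre- MPTP replicate 1. Of the 6 fits that left out 1 library of these groups, 2 kept an adjusted p under 0.05. It was lost without Cre- MPTP replicate 2 or without any of the Cre- Saline libraries, with adjusted p-values up to 0.154.

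Cldn5, the gene of claudin-5 (chromosome 16, 18776847 to 18778260, plus strand), stood at 87.1, 61.4 and 63.9 CPM in Cre- Saline and at 298, 49.0 and 60.3 CPM in Cre- MPTP. Replicate 1 was more than 3 times any other library, while the other 2 Cre- MPTP libraries were below all 3 saline libraries. The log2 fold change therefore turned from 0.94 (SE 0.512, edgeR adjusted p = 0.397) to -0.37 (SE 0.155, adjusted p = 0.158) without that library. Cldn5 had the highest GC content of the 10 genes (60.5%, above 96.5% of the genes tested), and its value in replicate 1 was 102 CPM after a trend on GC content was removed from each library. Tjp1, which encodes the scaffold ZO-1 of many cell types (chromosome 7, 65296165 to 65527781, minus strand), stood at 79.9, 105 and 113 CPM in Cre- Saline and at 58.6, 108 and 91.7 CPM in Cre- MPTP. Its groups overlapped, and its log2 fold change was -0.20 (adjusted p = 0.638), or 0.02 without Cre- MPTP replicate 1.

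Lef1, on chromosome 3 (131110471 to 131224356, plus strand), had the fewest counts per length. It stood at 10.9, 10.7 and 12.1 CPM in Cre- Saline and at 5.09, 8.60 and 8.78 CPM in Cre- MPTP, so that the groups did not overlap. The log2 fold change was -0.57 (SE 0.255, edgeR adjusted p = 0.325), and -0.37 without Cre- MPTP replicate 1.

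**Figure D2:**
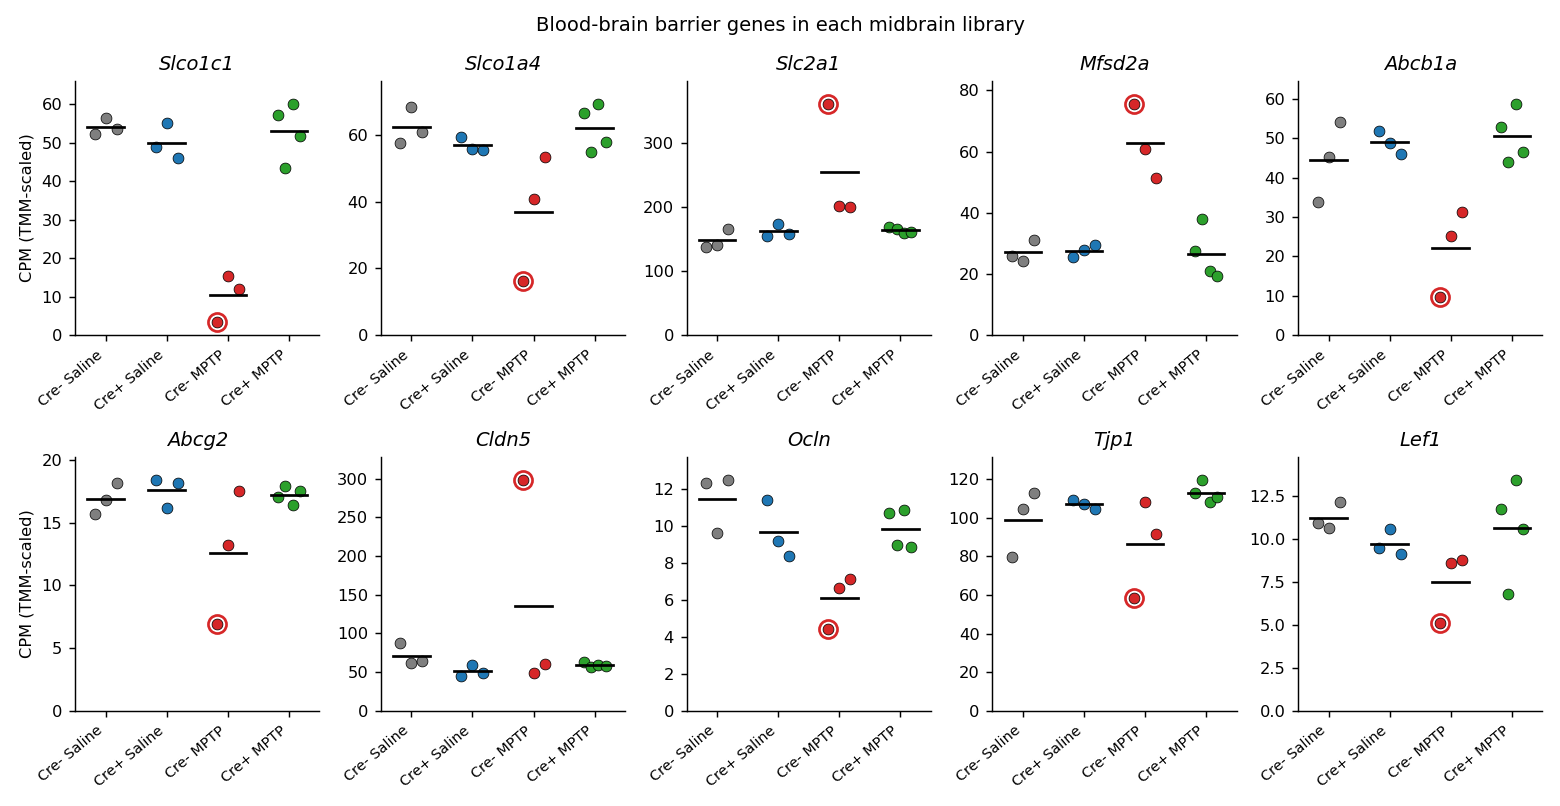
CPM of each barrier gene in each of the 13 libraries, with the 4 groups on the x axis, the group mean as a black line and Cre- MPTP replicate 1 ringed. All 3 Cre- MPTP points lay apart from the other 10 for Slco1c1, Mfsd2a, Slc2a1, Abcb1a, Slco1a4 and Ocln, while for Cldn5 the ringed point alone set the mean.

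Without Cre- MPTP replicate 1, 5 of the 10 genes passed, namely Slco1c1, Mfsd2a, Ocln, Slc2a1 and Abcb1a, where 9.38% of all genes did. The same 5 genes passed with the GC trend removed, where 4.81% of all genes did. With that trend removed, the log2 fold change was -2.30 for Slco1c1, 1.13 for Mfsd2a, 0.68 for Slc2a1, -0.75 for Ocln and -0.91 for Abcb1a. The values of these 5 genes kept their signs in both fits.

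**Figure D3:**
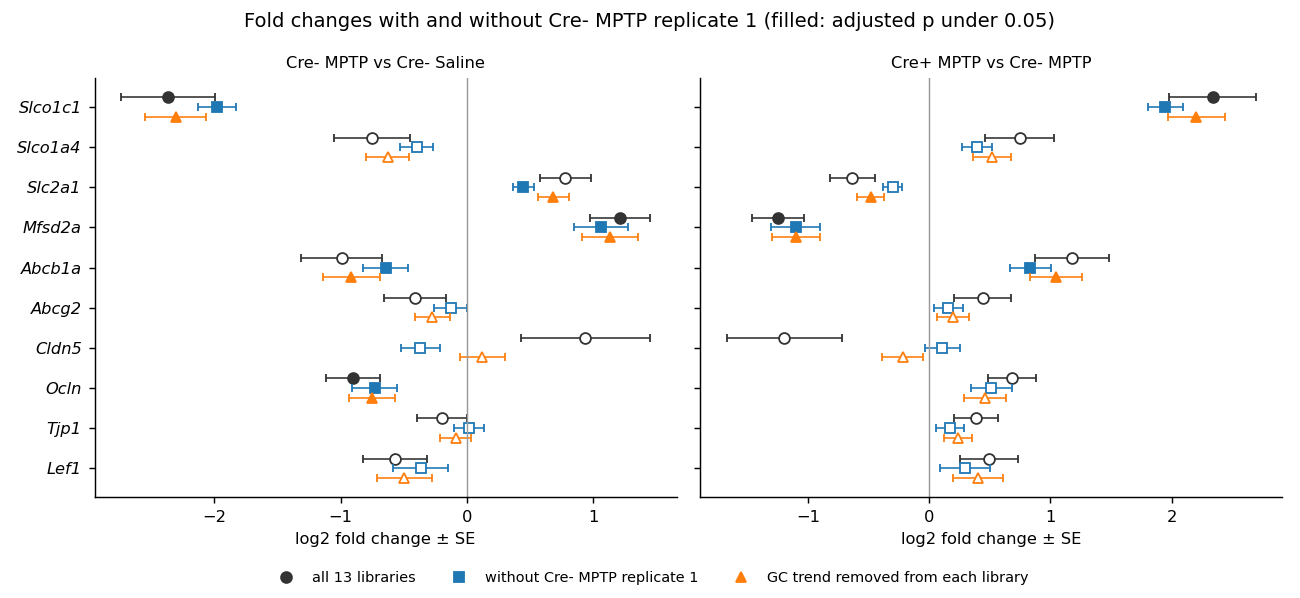
Log2 fold changes ± SE of the barrier genes with all 13 libraries (circles), without Cre- MPTP replicate 1 (squares) and with a GC trend removed from each library (triangles), and filled where the adjusted p was under 0.05. Slco1c1 and Mfsd2a kept their signs and their calls in these 3 fits and both comparisons, and Cldn5 moved from 0.94 to -0.37 and from -1.20 to 0.11 without that library.

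The second question was how the same genes responded to MPTP in mice without astrocytic Ripk3 (Cre+ MPTP against Cre+ Saline). None of the 10 genes passed, as none of all genes did (0% with edgeR's quasi-likelihood test, 672 of 19360 or 3.47% at an unadjusted p under 0.05, none of them a barrier gene). DESeq2 called 75 genes higher and 8 lower, and limma voom 183 higher and 111 lower, again none of the 10. The log2 fold changes of the barrier genes lay between -0.06 for Mfsd2a and 0.21 for Cldn5, with a median size of 0.07 against 0.11 over all genes. With the libraries scaled to endothelial markers all 10 were below 0 (-0.40 to -0.15), and none passed, where the median of all genes was -0.36. The CPM overlapped between the groups for all 10, where 9.66% of all genes did not overlap.

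In Cre+ mice, Slco1c1 stood at 48.9, 55.3 and 46.1 CPM with saline and at 57.2, 43.5, 60.1 and 51.8 CPM with MPTP. Mfsd2a stood at 25.5, 27.7 and 29.4 CPM with saline and at 27.3, 37.8, 20.9 and 19.4 CPM with MPTP. Ocln stood at 11.4, 9.19 and 8.38 CPM with saline and at 10.7, 9.01, 10.9 and 8.89 CPM with MPTP. For these 3 genes the libraries of both treatments were interleaved, and Mfsd2a was the most variable of them with MPTP. Slc2a1 lay between 155 and 173 CPM in all 7 Cre+ libraries, Abcb1a between 43.9 and 58.7 CPM, and Slco1a4 between 54.8 and 69.2 CPM. Abcg2 lay between 16.1 and 18.4 CPM, Cldn5 between 45.1 and 62.4 CPM, Tjp1 between 105 and 119.7 CPM, and Lef1 between 6.77 and 13.4 CPM.

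The third question was how the genotypes differed under MPTP (Cre+ MPTP against Cre- MPTP), a comparison that shares the Cre- MPTP libraries with the first. Slco1c1 was 5.06-fold higher and Mfsd2a 2.38-fold lower in Cre+ mice, so that 2 of the 10 genes passed, where 1.54% of all genes did (edgeR's quasi-likelihood test). CPM did not overlap for 7 of the 10 genes, where 11.3% of all genes did not overlap, with Slco1c1, Slco1a4, Abcb1a, Ocln and Tjp1 higher and Mfsd2a and Slc2a1 lower in Cre+ mice.

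For Slco1c1 the log2 fold change was 2.34 (SE 0.359, edgeR adjusted p = 0.0113), and the highest Cre- MPTP library, at 15.4 CPM, was far below the lowest Cre+ MPTP library, at 43.5 CPM. It passed in each of the 7 fits that left out 1 library of these groups, and without Cre- MPTP replicate 1 it was 1.95 (SE 0.144). For Mfsd2a it was -1.25 (SE 0.218, adjusted p = 0.0172), and -1.10 without Cre- MPTP replicate 1 (adjusted p = 0.00887), and it missed the threshold when Cre+ MPTP replicate 1 or 3 was left out (adjusted p-values up to 0.0636). Abcb1a was 1.18 higher on the log2 scale (SE 0.306, adjusted p = 0.0919), and 0.83 higher without Cre- MPTP replicate 1 (adjusted p = 0.0158). Slc2a1 (-0.64, adjusted p = 0.138), Ocln (0.68, adjusted p = 0.141), Slco1a4 (0.75, adjusted p = 0.208) and Tjp1 (0.39, adjusted p = 0.276) did not overlap and did not pass. Lef1 (0.49), Abcg2 (0.44) and Cldn5 (-1.20) overlapped, and Cldn5 turned to 0.11 without Cre- MPTP replicate 1. With that library left out, 3 of the 10 genes passed (Abcb1a with the other 2), where 3.18% of all genes did, and with the GC trend removed 4 passed (Slc2a1 as well), where 2.48% did. Fitted to these 7 libraries alone, edgeR called none of the 10 genes and none of all genes, with an adjusted p of 0.225 for Slco1c1.

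**Figure D4:**
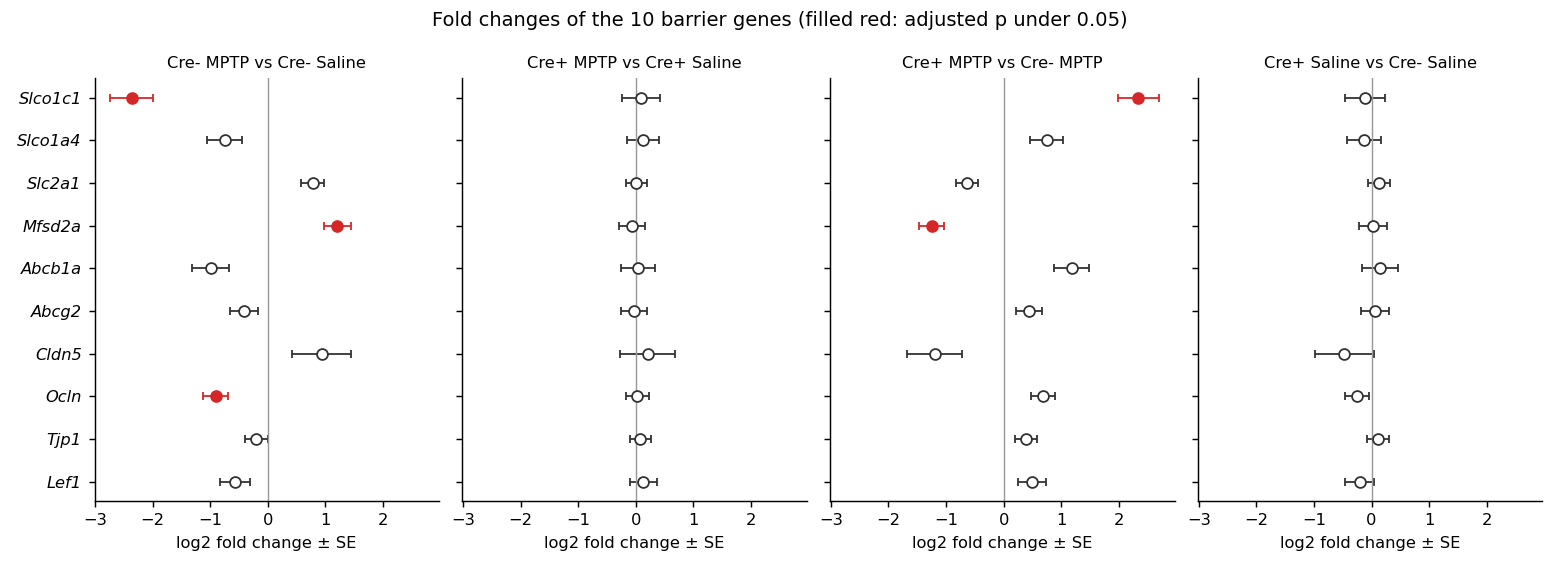
Log2 fold changes ± SE of the 10 barrier genes in the 4 comparisons, filled red where the adjusted p was under 0.05. The values of Slco1c1 were -2.37 and 2.34 in the Cre- MPTP against Cre- Saline and Cre+ MPTP against Cre- MPTP panels and those of Mfsd2a 1.21 and -1.25, and no gene passed in the other panels.

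Without the toxin, the genotypes were compared in saline (Cre+ Saline against Cre- Saline). None of the 10 genes passed (0% of all genes with edgeR's quasi-likelihood test, and 176 genes or 0.909%, none of them a barrier gene, at an unadjusted p under 0.05). The log2 fold changes lay between -0.47 for Cldn5 and 0.14 for Abcb1a. Cldn5 (45.1, 58.9 and 49.3 CPM in Cre+ Saline) and Lef1 (9.46, 10.6 and 9.14 CPM) were lower than in Cre- Saline without overlap, 2 of 10 genes where 11.6% of all genes did not overlap.

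The difference between the genotypes in their response to MPTP was tested as an interaction. None of the 10 genes passed, where 2 of 19360 genes (0.0103%) did (edgeR's quasi-likelihood test), and 5 of the 10 had an unadjusted p under 0.05, where 5.76% of all genes did. On the log2 scale, the response of Slco1c1 was 2.45 higher in Cre+ mice (SE 0.494, adjusted p = 0.145), and that of Mfsd2a was -1.27 (SE 0.321, adjusted p = 0.259). The interaction of Slco1c1 was 2.06 without Cre- MPTP replicate 1 (SE 0.185, adjusted p = 0.000924), where 1.03% of all genes passed, and 2.37 with the GC trend removed (adjusted p = 0.0255), where 0.0413% passed. DESeq2 called Slco1c1 (adjusted p = 0.000285) and Mfsd2a (adjusted p = 0.0259), and limma voom with sample quality weights called these and Slc2a1, Abcb1a and Slco1a4. With DESeq2 size factors, with scaling to endothelial markers, with no count filter and with the replicate number as a block, 0 of the 10 passed. The interaction calls thus depended on the fit. In the main fit, a response that differed between the genotypes was not shown for any of the 10 genes.

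Other genes of the barrier were read from lists of 24 junction genes, 34 transporters, 33 genes of the Wnt pathway and 10 genes of leak and caveolae. In Cre- mice, 5 of the 33 transporters tested fell with MPTP and 0 rose, where 0.956% of all genes fell, while the median of the list was -0.21 against 0.03 over all genes. Slc40a1, the iron exporter ferroportin, stood at 14.4, 13.7 and 13.3 CPM with saline and at 1.63, 4.48 and 3.96 CPM with MPTP (log2 fold change -1.99, edgeR adjusted p = 0.00253). Slc38a5, an endothelial carrier of glutamine, stood at 5.71, 6.48 and 3.61 CPM and at 0.975, 0.911 and 1.22 CPM (-2.33, adjusted p = 0.00290). These genes, like Slco1c1, were lower in every Cre- MPTP library than in any saline library of the same genotype. The organic anion transporter gene Slc22a8 (-2.36, adjusted p = 0.00422) and the glutamine carrier gene Slc38a3 (-0.89, adjusted p = 0.0156) also fell, and the fifth, Slc30a1, which encodes a zinc exporter and is named after its value was seen, fell by 0.64 on the log2 scale (adjusted p = 0.0433). Without Cre- MPTP replicate 1, 7 transporters fell and 4 rose, where 9.38% of all genes passed in either direction. All 5 of these genes passed there too, with Slc40a1 at -1.70, Slc38a5 at -2.29 and Slc22a8 at -2.01. With the GC trend removed, 4 transporters fell and 1 rose, where 4.81% of all genes passed in either direction. Slc40a1, Slc38a5 and Slc22a8 kept their calls in that fit. Slc38a3 (-0.91, edgeR adjusted p = 0.0727) and Slc30a1 (-0.47, adjusted p = 0.252) lost theirs.

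Of the 33 Wnt pathway genes, 3 fell and 0 rose, where 0.956% of all genes fell and 2.23% rose. The list median was 0.02. The 3 that fell were Notum, which encodes a Wnt-inactivating enzyme and is itself a Wnt target (-2.42, edgeR adjusted p = 0.00218), the receptor gene Fzd6 (-1.13, adjusted p = 0.00260) and Tnfrsf19 (-0.76, adjusted p = 0.00525). Notum stood at 3.45, 3.24 and 4.05 CPM in Cre- Saline and at 0.217, 0.792 and 0.825 CPM in Cre- MPTP, so its fold change rests on few counts. Reck, a co-receptor gene for Wnt7 ligands, had a log2 fold change of -0.81 (adjusted p = 0.0627). Without Cre- MPTP replicate 1, 7 Wnt pathway genes fell and 1 rose, where 9.38% of all genes passed in either direction. The list median was then -0.33, with Notum at -2.14, Fzd6 at -1.16 and Reck at -0.65 (edgeR adjusted p = 0.0368). None of the 23 junction genes tested passed, and the smallest p-values were those of Jam3 (-0.42, adjusted p = 0.181), Jam2 (-0.47), Cdh5 (0.68) and Nectin2 (0.81). None of the 10 genes of leak and caveolae passed either, with Cav1, the caveolin-1 gene, at -1.66 (adjusted p = 0.0545) and Angpt2, which encodes an antagonist of the receptor Tek, at 1.77 (adjusted p = 0.169). With Cre- MPTP replicate 1 left out, 2 of these 10 rose and 2 fell, where 9.38% of all genes passed. Among them were Cav1 (-1.33, edgeR adjusted p = 0.0299) and Angpt2 (2.06, adjusted p = 0.0337), and still none of the junction genes passed.

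In Cre+ MPTP against Cre- MPTP, 3 of 33 transporters were higher, where 0.517% of all genes were, and 0 lower. These were Slc38a5 (log2 fold change 2.53, edgeR adjusted p = 0.00720), Slc40a1 (1.57, adjusted p = 0.0172) and Slc22a8 (1.67, adjusted p = 0.0402). Slc38a5 stood at 6.73, 3.36, 8.12 and 5.95 CPM in Cre+ MPTP, where its 6 saline libraries held 3.61 to 6.48. Slc40a1 stood at 8.13, 10.97, 10.2 and 11.8 CPM, overlapping the lower end of its saline range of 10.6 to 14.4. Slc22a8 stood at 12.1, 19.5, 17.9 and 14.8 CPM, below all 6 saline libraries (23.8 to 27.7), with a log2 fold change of -0.66 in the Cre+ response that did not pass (SE 0.332, edgeR adjusted p = 1.00). Among the Wnt pathway genes Tnfrsf19 (0.74, adjusted p = 0.0128), Notum (1.73, adjusted p = 0.0223) and Fzd6 (0.77, adjusted p = 0.0340) were higher, and Wnt7a, a ligand gene, was at 0.77 (adjusted p = 0.0919). Cav1 was higher as well (2.11, adjusted p = 0.0271), with the highest value, 45.3 CPM, in Cre+ MPTP replicate 4, and the call was lost without that library (adjusted p up to 0.0584 over the fits that left out 1 library) and without Cre+ MPTP replicate 1 or 3. None of the junction genes passed. With Cre- MPTP replicate 1 left out, 7 transporters were higher and 2 lower and 5 Wnt pathway genes were higher, where 3.18% of all genes passed in either direction. Of the 10 genes of leak and caveolae, 2 were higher in that fit, Cav1 (1.78, edgeR adjusted p = 0.0113) and Plpp3 (0.55, adjusted p = 0.0429). The 2 lower were Vcam1 (-0.95, edgeR adjusted p = 0.00087) and Angpt2 (-2.12, adjusted p = 0.0405). In the other 2 comparisons and the interaction, 0 genes of these 4 lists passed in the main fit with edgeR's quasi-likelihood test. Without Cre- MPTP replicate 1, the interaction was higher for 4 of 33 transporters and 4 of 33 Wnt pathway genes. It was lower for 1 of 10 genes of leak and caveolae, and 0 junction genes passed, where 1.03% of all genes did. With the GC trend removed, 0 genes of these lists passed in the interaction.

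**Figure D5:**
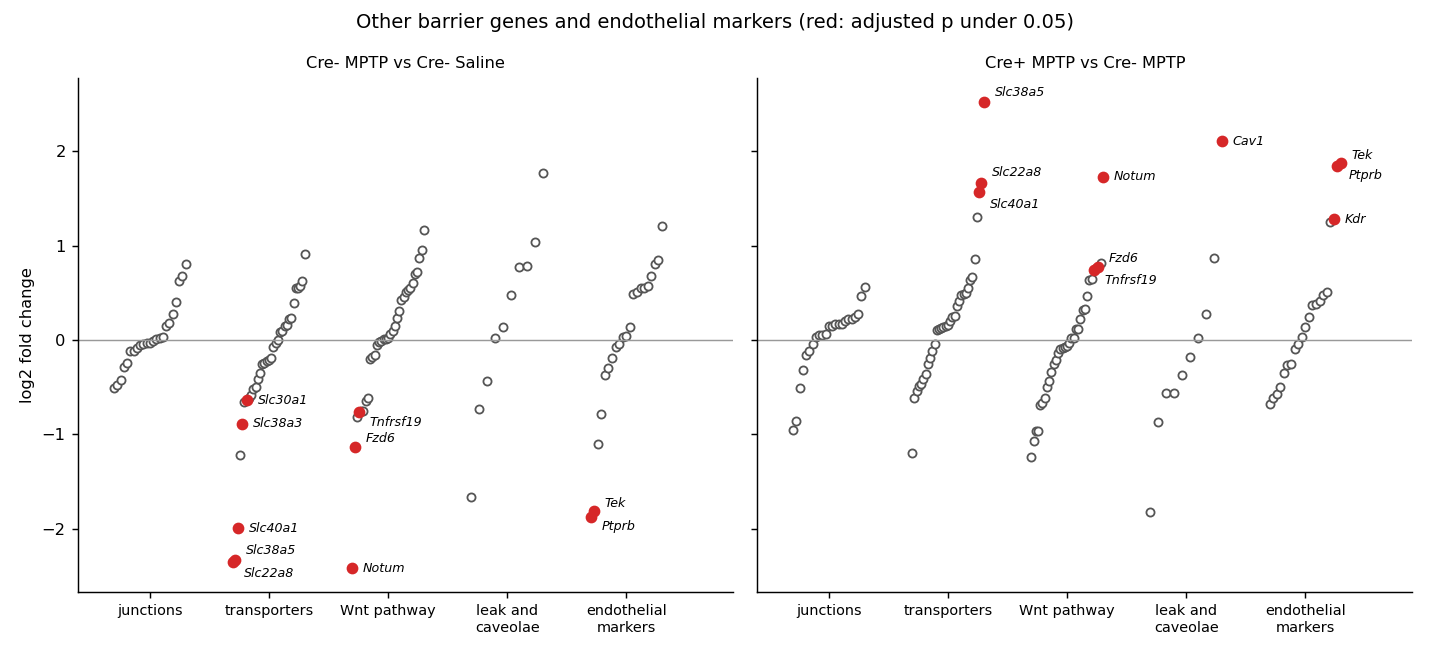
Log2 fold change of each tested gene in 4 barrier lists and in the endothelial marker list, ordered by value within each list, with genes at an adjusted p under 0.05 in red and named. The red genes were all below 0 in Cre- MPTP against Cre- Saline and all above 0 in Cre+ MPTP against Cre- MPTP, and no junction gene was red.

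The amount of endothelial RNA was read from 21 markers, summed per library. The sums were 525 to 627 CPM in Cre- Saline, 473 to 575 in Cre+ Saline, 572 to 620 in Cre- MPTP and 560 to 808 in Cre+ MPTP, the highest in replicate 4. Cre- MPTP therefore lay within the range of Cre- Saline. In Cre+ MPTP against Cre+ Saline, 20 of the 21 markers had a log2 fold change above 0. The list median was 0.38 there, against 0.003 over all genes. CPM did not overlap for 7 of the 21, where 9.66% of all genes did not, and 0 markers passed. Without Cre- MPTP replicate 1, 1 marker was higher in that comparison, where 31 of 19311 genes were. Single markers moved. In Cre- mice 2 of the 21 fell with MPTP, where 0.956% of all genes fell. They were Tek, the angiopoietin receptor (-1.81, edgeR adjusted p = 0.00374), and Ptprb, the endothelial phosphatase VE-PTP (-1.88, adjusted p = 0.0108). In Cre+ MPTP against Cre- MPTP both were higher (1.88 and 1.85), as was Kdr, the main VEGF receptor (1.28, edgeR adjusted p = 0.0421). That made 3 of the 21 markers, where 0.517% of all genes were higher. Without Cre- MPTP replicate 1, Tek was at -1.54 and Ptprb at -1.52 in Cre- mice. In that fit 3 of the 21 markers fell and 3 rose, where 9.38% of all genes passed in either direction. With the libraries scaled to the endothelial markers in place of TMM, Slco1c1 kept its call in Cre- mice (-2.43, adjusted p = 0.00369) and Mfsd2a lost it (1.14, adjusted p = 0.0778). The same scaling moved the median of all genes to -0.36 in the Cre+ response.

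Markers of other cell types were summed in the same way, and the counts that passed are for Cre- MPTP against Cre- Saline, where 0.956% of all genes were lower and 2.23% higher. Pericyte markers summed to 128 to 252 CPM in Cre- MPTP, against 313 to 347 in saline and 286 to 380 in Cre+ MPTP, and 1 of 10 was lower. Smooth muscle markers summed to 15.9 to 32.6 CPM, against 40.9 to 83.0 in saline and 34.0 to 42.0 in Cre+ MPTP, with 1 of 5 lower. Oligodendrocyte markers summed to 9414 to 12070 CPM, against 12745 to 17554 in saline and 11336 to 14704 in Cre+ MPTP, with 3 of 8 lower and a list median of -0.73. Microglial markers summed to 172 to 237 CPM, against 240.5 to 276 in saline and 243 to 318 in Cre+ MPTP, with 2 of 8 lower. Neutrophil markers summed to 10.4 to 64.2 CPM, against at most 3.24 in saline and 3.92 in Cre+ MPTP. Of the 7 neutrophil markers 5 could be tested and 4 of them were higher, and 5 of the 7 were at 0 in at least 1 library. None of the 9 neuronal markers passed, and 1 of 10 astrocyte markers was higher. Dopaminergic neuron markers summed to 255 to 366 CPM, against 278 to 341 in saline and 265 to 350 in Cre+ MPTP. None of those 8 markers passed. Thalamic neuron markers summed to 130 to 160 CPM, against 106 to 120 in saline and 109 to 141 in Cre+ MPTP. Of these 8 markers 1 was higher and 0 lower. Meningeal fibroblast markers summed to 195 to 256 CPM, against 198 to 314 in saline and 139 to 249 in Cre+ MPTP. Of those 8 genes 1 was higher and 2 lower. Choroid plexus markers summed to 29.3 to 35.8 CPM, against 28.5 to 40.2 in saline and 28.3 to 92.0 in Cre+ MPTP. Ependymal markers summed to 27.4 to 93.6 CPM, the most in replicate 1, against 33.9 to 46.2 in saline. None of the 9 choroid plexus markers tested or the 6 ependymal markers passed. Leaving out Cre- MPTP replicate 1, the lower counts were 1 pericyte, 1 smooth muscle, 5 oligodendrocyte, 3 microglial and 2 neuronal markers. Also lower there were 1 ependymal and 2 meningeal fibroblast markers. Higher in that fit were 4 astrocyte, 4 neutrophil, 2 thalamic neuron, 1 dopaminergic neuron and 1 meningeal fibroblast markers. Over all 19311 genes tested there, 820 were lower and 992 higher. Astrocytes also express Slco1c1 and Slc2a1, and their markers summed to 2881 CPM in Cre- MPTP replicate 1 and to between 3941 and 4840 in the other libraries. The part of these cells in the values of the barrier genes was not tested.

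The 10 genes did not move together. Over the 13 libraries, with each gene centred on its mean, the mean absolute difference in log2 CPM was smallest between Tjp1 and Abcg2 (0.15) and largest between Mfsd2a and Slco1c1 (1.36). The same pairs were the closest and the farthest over the 12 libraries without Cre- MPTP replicate 1 (0.125 and 0.88). By the same measure, taken as a description over all genes tested, the genes nearest to Slco1c1 were Siglech (0.21), A230001M10Rik (0.23) and Fcrls (0.24), where the median gene was at 0.92. Siglech and Fcrls are known as genes of microglia, and Siglech averaged 9.75 CPM in Cre- Saline, 1.38 in Cre- MPTP and 9.85 in Cre+ MPTP. Nearest to Mfsd2a were Hr (0.14), Synm (0.14) and Smim3 (0.15), with the median gene at 0.54. Hr, which encodes a nuclear receptor corepressor, averaged 53.4 CPM in Cre- Saline, 109 in Cre- MPTP and 49.9 in Cre+ MPTP. Nearest to Ocln were Amt (0.12), Ephx1 (0.13) and Reck (0.13), with the median gene at 0.38. Without Cre- MPTP replicate 1, Synm was the only one of these 9 genes that stayed. The nearest were then Fzd10, Slc2a5 and Tek for Slco1c1 (0.18 each), Phactr4, Synm and Gadd45g for Mfsd2a (0.14 each), and Jph4, H2-DMa and 1700003E16Rik for Ocln (0.10 to 0.11).

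The RefSeq promoters of all 10 genes were searched, in the 250 bases before the start and on both strands, for the TCF/LEF cores CTTTGA and CTTTGT shown in capitals above. Slco1c1 held 1 match, 140 bases before the start, Mfsd2a 1 match, 115 bases before it, and Abcb1a 3, none overlapping. These are 3 of 10 genes, near the 27.6% of all 32851 promoters that hold either core. The GC box GGGCGG was found in Cldn5, Ocln, Tjp1, Slc2a1 and Lef1, 5 of 10, where 32.7% of all promoters hold it. The printed promoters differed in composition, with 42.8% GC and 0 CpG dinucleotides for Slco1c1, 61.6% and 17 for Mfsd2a, and 64.0% and 14 for Ocln, where the median promoter had 52.4% and 6. The windows of Abcb1a and Tjp1 lie away from the gene starts of the counts, at chr5:8566841-8567090 and chr7:65371245-65371494.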

How the data were processed

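Per the labels and the study's methods, the authors prepared libraries with a TruSeq Stranded Total RNA kit, trimmed paired reads with Trimmomatic 0.36, aligned them to GRCm38 with STAR 2.5.2b and used featureCounts (Subread 1.5.2) to count uniquely mapped reads over genes. The strand setting of the counting is not given in the sources used here. The deposited values were raw counts per gene and library.

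The 19360 genes that reached 10 counts in 3 or more libraries were fitted with edgeR 4.0.16 (R 4.3.3, TMM, quasi-likelihood test, 1 term per group over all 13 libraries), with Benjamini-Hochberg adjustment over all genes tested and a threshold of 0.05. CPM were scaled by TMM, and TPM used exon lengths. Standard errors were the log2 fold change over the root of F. Alternatives were DESeq2 1.42.0, limma 3.58.1 voom with quality weights, edgeR on the groups compared only, DESeq2 size factors, scaling to endothelial markers, no count filter, a replicate block, each library left out, and, added after the values were seen, a lowess trend on GC content removed. The script was tested on simulated data.

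The members and lists were chosen with earlier results of these data known. Named were all members, up to 4 genes with the smallest p per list and comparison, and the 3 genes nearest to each called member. IDs were matched to GENCODE M21 for 49056 of 49315 genes. Promoters came from RefSeq (GRCm38.p6), with all 10 members matched. Libraries of the same group differed by more than sampling noise.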

Additional observations from a re-analysis of the deposited data

How the results depend on the processing

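With 3 or 4 mice per group, single libraries moved many calls, and for the genes with few counts, such as Slco1c1 with 31 counts in Cre- MPTP replicate 1, depth limits the precision. In Cre- MPTP against Cre- Saline, where 3 of the 10 barrier genes passed, 5 passed with DESeq2, with the GC trend removed and with both Cre- MPTP replicate 1 and Cre+ MPTP replicate 4 left out, 6 with limma voom, 2 with no count filter, 1 with scaling to endothelial markers and 0 with edgeR on the groups compared only. Leaving out 1 library gave 1 to 5. The calls over all genes moved too, from 431 higher and 185 lower of 19360 to 757 and 380 with DESeq2. They were 1373 and 1251 with limma voom, 614 and 318 with the GC trend removed, and 325 and 135 with scaling to endothelial markers. Without both libraries they were 1059 and 864 of 19148. With no count filter they were 414 and 153 of 35759, and on the groups compared only 105 and 5 of 18332. In Cre+ MPTP against Cre- MPTP, where 2 passed, 5 passed with DESeq2, 6 with limma voom and 4 with the GC trend removed. There were 3 without both libraries together, 0 with edgeR on the groups compared only, and 1 to 4 with 1 library left out. Over all genes, 100 were higher and 199 lower in the main fit, 269 and 565 with DESeq2, and 488 and 736 with limma voom. They were 169 and 311 with the GC trend removed, 211 and 346 without both libraries, and 0 with edgeR on the groups compared only. For the interaction, where 0 passed, 2 passed with DESeq2, 5 with limma voom, 1 with the GC trend removed and 1 without both libraries. With 1 library left out it was 0 to 1. Over all genes, the interaction was higher for 2 and lower for 0 in the main fit, 83 and 140 with DESeq2, and 291 and 398 with limma voom. It was 6 and 2 with the GC trend removed and 101 and 119 without both libraries. In the other comparisons 0 of the 10 barrier genes passed under every alternative run.

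Same-numbered libraries did not deviate together (correlations of -0.179 to 0.184 over 18 pairs). These correlations cannot settle whether the numbers mark a batch or a pairing. With the number as a replicate block, 2 barrier genes passed in Cre- MPTP against Cre- Saline (Slco1c1 -2.44, adjusted p = 0.0135, and Mfsd2a 1.20, adjusted p = 0.0323, edgeR). Over all 19360 genes, 297 were higher and 131 lower there. In Cre+ MPTP against Cre- MPTP (Slco1c1 2.44, edgeR adjusted p = 0.0807) and in the interaction, 0 barrier genes and 0 of all genes passed.

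Signs turned for genes that had not passed, and the cause was not tested other than by the alternatives named. For Cldn5 in Cre- MPTP against Cre- Saline the log2 fold change was -0.18 with limma voom, -0.36 without both libraries, and -0.37 to 1.31 with 1 library left out. In Cre+ MPTP against Cre- MPTP it was 0.088, 0.12 and -1.57 to 0.11, and in the interaction 0.42, 0.58 and -1.11 to 0.58, with 0.13 after the GC trend was removed. Tjp1 in Cre- MPTP against Cre- Saline was 0.027 without both libraries and -0.39 to 0.02 with 1 left out. Scaling to endothelial markers turned all 8 positive values of the Cre+ response, to -0.15 for Cldn5, -0.33 for Ocln, -0.28 for Tjp1 and Slco1c1, -0.35 for Slc2a1, -0.32 for Abcb1a, -0.24 for Slco1a4 and -0.25 for Lef1. It also gave -0.031 for Tjp1 in the interaction, and 0.022 for Slco1c1 and 0.015 for Slco1a4 between genotypes in saline, where removing the GC trend gave -0.012 for Abcg2. Mfsd2a in the Cre+ response was 0.043 with the replicate block and 0.061 without both libraries. With 1 library left out, the Cre+ response ranged from -0.29 to 0.055 for Mfsd2a, -0.065 to 0.16 for Ocln, -0.027 to 0.062 for Slc2a1 and -0.033 to 0.11 for Abcb1a, and the difference in saline from -0.047 to 0.14 for Mfsd2a, -0.020 to 0.22 for Tjp1 and -0.022 to 0.32 for Abcb1a.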
